A study of Mus musculus with 41 samples.

Results

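The measurements below concern 45 genes of cell division and DNA replication, chosen by name from a list that runs from the proliferation marker Mki67 and the replication genes to the mitotic kinases and spindle motors. All 45 were on the arrays, among 30175 genes on them, and 44 passed the filter on signal, together with 20906 genes in all; the kinase gene Aurkb did not, since its single probe was well above background in only 3 of the 41 tumors. The RNA came from 41 mammary tumors of BALB/c mice, each hybridised on an Agilent mouse array beside Universal Mouse Reference RNA, a pool of mouse cell lines. All tumors arose from fragments of Trp53-null mammary duct, taken from several donor mice, shared evenly over the regimens, and placed in the cleared fat pads of weanling wild-type females, so that the surrounding fat, vessels and immune cells were those of the host. Recipients ate a lifelong low fat diet (LFD), a lifelong high fat diet rich in animal fat (HFD), a HFD in puberty followed by LFD (HFD-LFD), or LFD in puberty followed by HFD in adulthood (LFD-HFD).

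Of the 29 epithelial tumors, 14 occurred early, before about a year, and 15 late. By regimen these were 8 LFD tumors (4 early, 4 late), 8 HFD tumors (4 and 4), 7 HFD-LFD tumors (3 and 4) and 6 LFD-HFD tumors (3 and 3). The 12 spindle cell tumors comprised 3 of each regimen, and 3 of them were early: 1 HFD-LFD and 2 LFD-HFD tumors. The morphology field of the labels reads spindle-like for these 12 tumors and variable for the other 29, which are called epithelial here after the study's own comparison. The label was checked against markers. Of 12 mesenchymal and fibroblast markers, 11 were higher in the spindle cell tumors, 6 of them past the test, while 0 of 11 epithelial markers were higher and none of these passed it. The median of the epithelial markers lay between -2.44 and 2.82 in the spindle cell tumors and between 0.17 and 4.26 in the epithelial tumors (log2 tumor over reference), and it was above 0 in 9 of the 12 spindle cell tumors. The single Trp53 probe ranged from -2.25 to 3.74 in the epithelial tumors and from 0.08 to 1.95 in the spindle cell tumors; whether it lies in the deleted part of the gene is not given in the sources used here.

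A cell that divides first licenses its origins of replication with the MCM helicase, copies its DNA around the sliding clamp PCNA, and then condenses and separates its chromosomes under the control of cyclin B and CDK1, the Aurora and Polo-like kinases and the spindle checkpoint. Transcripts of the first group rise in G1 and S phase under E2F factors. Those of the second rise in G2 and M phase under the MuvB complex with B-MYB and FOXM1. The latter control acts through a short element called the cell cycle genes homology region (CHR) and through CCAAT boxes bound by NF-Y. In tumors the RNA of these genes is widely used as a measure of how many cells are cycling. In a bulk tumor, however, fewer cycling cells and less RNA in each cannot be told apart.

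The promoters of the members carried these elements often. RefSeq promoters of 300 bases (250 before to 50 after the start, build GRCm38.p6) were found for 38 members, with 41 promoters among them, and 7 members (Kif20a, Tpx2, Mcm4, Foxm1, Ccna2, Aurkb, Cdc25c) had no entry. A CHR, searched on both strands as TTTGAA or TTCGAA, stood in 25 of the 41 promoters (61%), compared with 19.2% of all 32851 promoters of the same length. The CCAAT box (CCAAT, both strands) stood in 34 (82.9%) against 37.4%, and both elements together in 24 (58.5%) against 7.52%. An E2F element, searched as TTTCCCGC, TTTGGCGC, TTTCGCGC or TTTGCCGC on both strands, stood in 6 (14.6%) against 2.26%. By role, the E2F letters were in promoters of 5 of 12 replication members and of 1 of 3 members of the cyclin and CDK1 group. None of the 23 other members with a promoter had them. The CHR was in 4 of 12 replication members, 2 of 3 of the cyclin and CDK1 group and 5 of 7 kinase and checkpoint members. It was in 3 of 5 passenger complex and centromere members, 5 of 6 spindle motor and cytokinesis members and 3 of 3 anaphase members. Mki67 held it and Mybl2 did not. The CCAAT box was in 10 of 12 replication members. These are matches of letters in a fixed window, not measured binding.

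**Figure D1:**
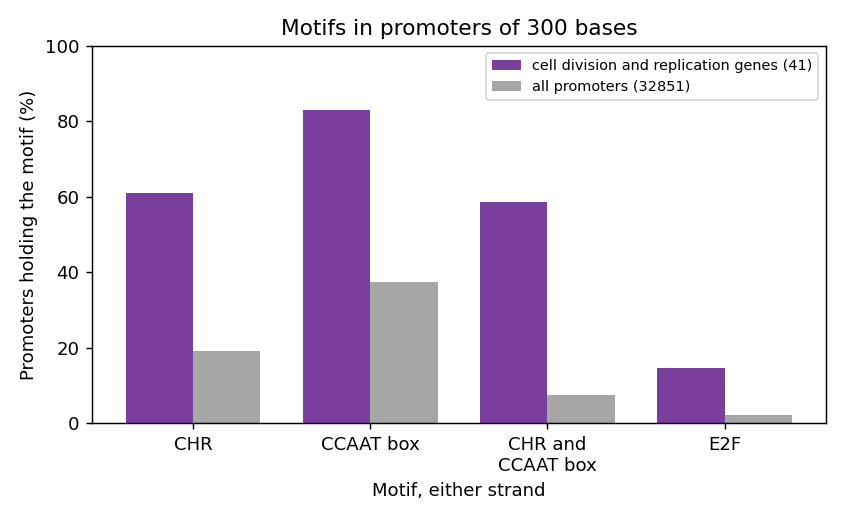
Share of promoters (vertical axis, %) that hold each motif on either strand, for the 41 promoters of the cell division and replication genes (purple) and all 32851 promoters (gray). The bars of the members stand above those of all promoters for each motif, with 58.5% against 7.52% for the CHR and CCAAT box together.

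Stretches of 6 of these promoters are shown because the genes recur in the results: the proliferation marker, the S and M phase topoisomerase, an MCM subunit and a cyclin that were lower in spindle cell tumors, the kinase whose promoter held all of the elements, and the gene that was higher in spindle cell tumors. Each runs 5′ to 3′ from position -150 to position 30 relative to the annotated start, and capitals mark CHR, CCAAT and E2F letters on either strand, overlapping matches included.
Mki67 (chr7:135716350-135716529, minus strand): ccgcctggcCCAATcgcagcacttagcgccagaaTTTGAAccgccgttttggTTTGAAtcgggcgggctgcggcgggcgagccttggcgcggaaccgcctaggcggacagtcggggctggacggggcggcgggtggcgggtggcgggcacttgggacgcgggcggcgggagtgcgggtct
Top2a (chr11:99024160-99024339, minus strand): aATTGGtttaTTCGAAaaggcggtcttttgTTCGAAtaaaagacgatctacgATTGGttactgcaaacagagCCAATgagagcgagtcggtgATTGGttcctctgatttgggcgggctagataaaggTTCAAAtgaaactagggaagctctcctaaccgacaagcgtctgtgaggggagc
Mcm6 (chr1:128359676-128359855, minus strand): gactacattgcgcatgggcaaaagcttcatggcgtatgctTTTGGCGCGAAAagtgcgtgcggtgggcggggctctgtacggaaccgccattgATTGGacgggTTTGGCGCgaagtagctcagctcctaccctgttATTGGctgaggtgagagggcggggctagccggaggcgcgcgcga
Cdk1 (chr10:69352883-69353062, minus strand): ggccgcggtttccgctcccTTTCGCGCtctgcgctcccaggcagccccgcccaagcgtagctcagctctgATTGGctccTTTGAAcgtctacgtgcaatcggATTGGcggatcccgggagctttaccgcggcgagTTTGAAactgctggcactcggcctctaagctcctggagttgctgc
Ccnb2 (chr9:70421525-70421704, minus strand): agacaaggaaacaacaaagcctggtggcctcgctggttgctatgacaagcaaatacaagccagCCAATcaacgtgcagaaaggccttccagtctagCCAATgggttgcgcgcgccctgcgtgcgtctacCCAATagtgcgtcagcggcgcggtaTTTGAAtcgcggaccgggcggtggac
Cdc45 (chr16:18811943-18812122, minus strand): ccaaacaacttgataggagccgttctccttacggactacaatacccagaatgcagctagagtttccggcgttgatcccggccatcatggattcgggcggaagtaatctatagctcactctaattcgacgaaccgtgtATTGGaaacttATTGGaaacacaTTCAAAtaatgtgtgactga
The Mki67 stretch held 2 CHR matches and 1 CCAAT box, and that of Top2a 3 and 4. In Mcm6, which encodes a subunit of the replicative helicase, there were 3 E2F matches, of which a pair overlapped, and 2 CCAAT boxes but no CHR. Cdk1 held 2 CHR matches, 2 CCAAT boxes and 1 E2F match. Ccnb2 held 3 CCAAT boxes and 1 CHR downstream of the start, and Cdc45 held 2 CCAAT boxes and 1 CHR that likewise lay past the annotated start.

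Before the values, the state of the arrays that they rest on. Values are log2 ratios of tumor over reference RNA, with the tumor taken as the Cy5 (red) channel as the labels give it. This direction is the opposite of the methods text of the study, which assigns the reference to Cy5; it was kept because 5 probes of Y-linked genes, which female mice lack, had a median below 0 on 38 of 41 arrays (range -2.36 to 0.26). Between 52.38% and 94.87% of spots were well above background in the tumor channel of an array, and precision is limited by how many arrays there were. On the array of the early HFD tumor 60L 22.02% of spots were outliers and were left out, which left it with 20 of 44 members; its median is therefore not comparable with the others. For 3 epithelial HFD tumors (40R4A, 57R and 65R) the authors' table of processed values matched the scanner file of another of the 3 (r = 0.965 to 0.968, compared with 0.759 to 0.837 for its namesake), so that 57R and 65R may have exchanged onset under the names of that table. Scanning of the spindle cell tumors formed its own session, with another version of the image software, so histology and scanning session cannot be told apart.

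The members were mostly above the cell line reference. The median over the 44 genes lay between 0.00 and 1.72 in epithelial tumors (middle tumor 0.70) and between -1.04 and 0.95 in spindle cell tumors (middle value 0.60), whereas the median of all genes lay between 0.02 and 0.53. The highest tumor after 60L was the late HFD-LFD tumor 110R at 1.47, in which 44 of 44 members were above the reference, and then the late LFD tumor 13L at 1.31. The lowest was the late LFD-HFD spindle cell tumor M76R at -1.04, in which 2 of 44 members were above it. The next lowest was M86R, an early LFD-HFD spindle cell tumor at -0.04. Among epithelial tumors the spread over tumors was smallest for Prc1 (SD 0.31), a microtubule bundler of the central spindle, and Mcm3 (SD 0.33), and largest for the checkpoint kinase gene Ttk (SD 1.08) and the CDK1 activator Cdc25c (SD 0.93).

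**Figure D2:**
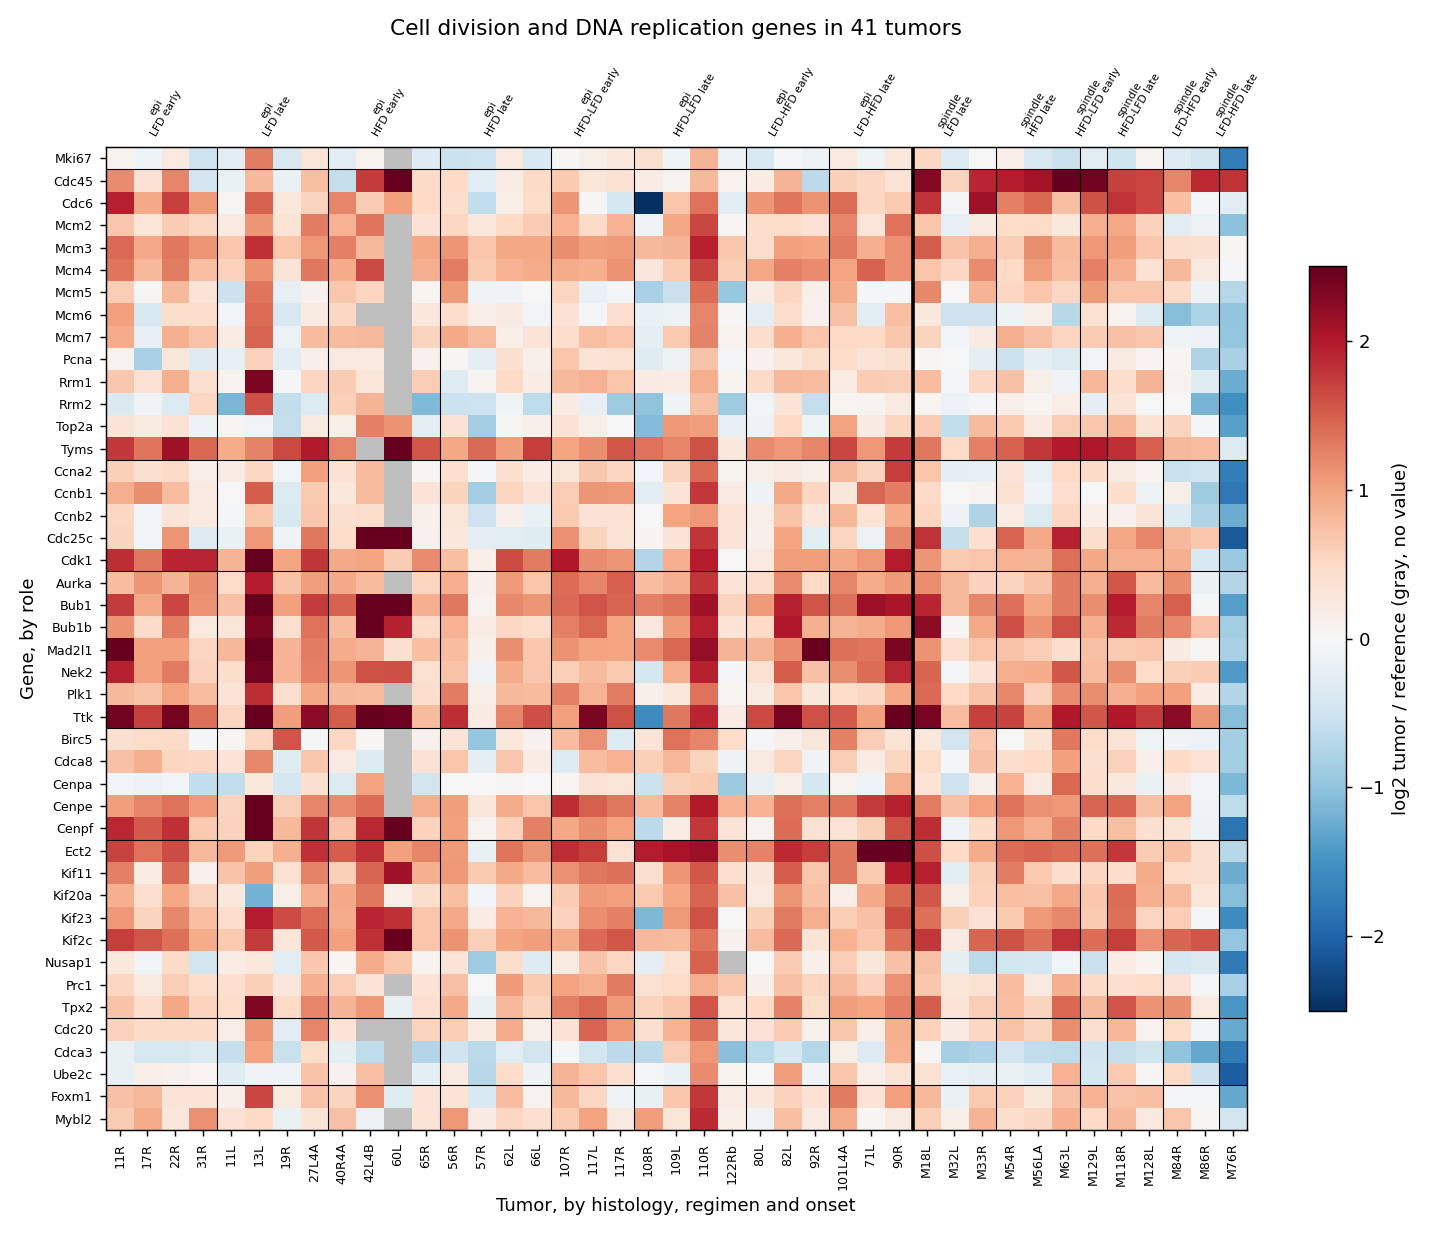
Log2 tumor over reference (color; gray, no value) of the 44 genes (rows, by role) in 41 tumors (columns, by histology, regimen and onset; the thick line separates epithelial from spindle cell tumors). The M76R column is blue for all but 2 genes, the 110R column red for all 44, and Cdc45 is red throughout the spindle cell tumors.

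The members rose and fell together across tumors. Over the 29 epithelial tumors, Pearson's r between 2 members had a median of 0.51 over 946 pairs (range -0.23 to 0.89), and 922 pairs were above 0. Over 28 tumors with a value, the pattern most like that of Mki67 was that of the spindle assembly factor gene Tpx2 (r = 0.79). The ribonucleotide reductase gene Rrm1 (0.73) and the kinase gene Aurka (0.73) came next. Least alike was the cytokinesis motor gene Kif20a (-0.05). Tumor 13L held both the highest Mki67 value (1.28) and the lowest Kif20a value (-1.19) of the epithelial tumors, and r without it was not computed. An r above 0.5 with Mki67 was seen in 23 of 43 members (53.5%) and in 1.76% of all genes. These are correlations over arrays that share a reference and a slide design, and are given as a description. In the 12 spindle cell tumors the median r between members was 0.79, with M76R lowest for most of them.

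Of 5 relations chosen for test across the epithelial tumors, 4 passed. Mki67 and Pcna, the 2 genes whose proteins are most used to stain dividing cells, correlated with r = 0.54 and rho = 0.58 over 28 tumors (permutation p = 0.00362 and 0.00141, two-sided; adjusted over the 5 relations 0.00452 and 0.0042). Without 13L and 110R, the tumors farthest from the median of Mki67, r was 0.41, and after subtracting slide means it was 0.71. Mki67 with Mcm2 gave r = 0.54 and rho = 0.49 (permutation p = 0.00315 and 0.00865, adjusted 0.00452 and 0.0108), or 0.38 without the same tumors and 0.54 within slides. Pcna with Mcm2 gave r = 0.58 and rho = 0.57 (permutation p = 0.00114 and 0.00168, adjusted 0.00452 and 0.0042), or 0.52 without 17R and 110R and 0.66 within slides. The transcription factor gene Foxm1 and its target Plk1 gave r = 0.57 and rho = 0.49 (permutation p = 0.00184 and 0.00855, adjusted 0.00452 and 0.0108). That relation was 0.33 without 110R and 13L, was 0.70 within slides, and differed between 0.06 in the 13 early and 0.71 in the 15 late tumors, a difference that was not tested. Mki67 and Top2a did not pass (r = 0.25 and rho = 0.35 over 28 tumors; permutation p = 0.192 and 0.0712, unchanged in value by the adjustment), with 0.26 without 13L and 110R and 0.20 within slides.

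The comparison of spindle cell with epithelial tumors asked which transcripts accompany the poorly differentiated spindle histology. Among the members, 8 of 44 were lower and 1 was higher in spindle cell tumors (limma, adjusted p under 0.05 over all genes). The 8 were the sliding clamp gene Pcna, the helicase gene Mcm6, the cyclins Ccna2, Ccnb1 and Ccnb2, the spindle checkpoint gene Mad2l1, the spindle microtubule gene Nusap1 and the mitotic entry gene Cdca3, and the gene that rose was Cdc45, which encodes a core part of the helicase that opens the DNA at a fork. The 18.2% of members called lower compared with 12.2% of all genes tested, and the 2.27% called higher with 7.93%. In either direction 20.5% of members and 20.2% of all genes were called. The median difference over the members was -0.28 on the log2 scale, beside -0.07 over all genes. Below 0 were 34 of 44 members, while 43.1% of all genes were above 0. No member had values that did not overlap between the histologies, which 0.0909% of all genes had.

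Of the 3 common markers of proliferation, Pcna passed the test and Mki67 and Top2a did not, and whether the genes differed from each other was not tested. Mki67 lay between -0.54 and 1.28 in 28 epithelial tumors (median -0.08) and between -1.73 and 0.51 in 12 spindle cell tumors (median -0.33). The difference was -0.33 ± 0.16 (SE) and did not pass (limma adjusted p = 0.138); the groups overlapped widely, and the lowest spindle cell tumor, M76R, stood far below the rest. Pcna ranged from -0.82 to 0.72 (median 0.18) and from -0.81 to 0.22 (median -0.14), with means of 0.14 ± 0.35 (SD, n = 28) and -0.22 ± 0.33 (SD, n = 12). Its difference of -0.36 ± 0.12 (SE) passed (limma adjusted p = 0.0331), although all spindle cell values lay within the epithelial range. The Pcna probe is annotated over 33 bases of mm9 (chr2:132075022-132075054), a shorter span than that of most probes, and on the tumor channel alone, scaled within each array, the difference was 0.01 (limma adjusted p = 0.966). Pcna passed under 8 of 17 alternatives, and among those where it did not were normexp with loess, the authors' table, slide as a random block and the fit without M76R. Top2a, the topoisomerase that untangles sister DNA, ranged from -1.09 to 1.25 (median 0.15, n = 29) and from -1.36 to 0.83 (median 0.58, n = 12), and its difference of 0.08 ± 0.20 (SE) did not pass (limma adjusted p = 0.804).

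Replication genes parted in direction. Of 13 replication members 1 rose, 2 fell and 9 in all were below 0, with a median of -0.26. Cdc45 ranged from -0.66 to 2.59 (median 0.38) in 29 epithelial tumors and from 0.55 to 2.69 (median 1.89) in 12 spindle cell tumors, with means of 0.45 ± 0.68 (SD) and 1.85 ± 0.56 (SD). It was above the reference in 12 of 12 spindle cell tumors, M76R included at 1.80, and the 2 highest epithelial tumors were 60L and 42L4B, which shared a slide. Its difference of 1.40 ± 0.22 (SE) was the largest of any member (limma adjusted p = 1.41e-05). The probe was dim, with a mean log2 signal of 6.88, but was well above background in the tumor channel of all 41 tumors and in the reference channel of 39; the difference lay in the tumor channel (1.25) and not in the reference (-0.15). Mcm6 ranged from -0.41 to 1.39 (median 0.22, n = 27) and from -1.07 to 0.38 (median -0.43, n = 12), a difference of -0.62 ± 0.17 (SE; limma adjusted p = 0.00683). The other 4 MCM genes with a negative difference did not pass, and Mcm5 and the origin licensing gene Cdc6 had positive differences that did not pass either.

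Of the 5 members of the cyclin and CDK1 group 3 were called, all of them lower. Ccnb1, the cyclin that drives entry into mitosis, ranged from -0.86 to 1.77 (median 0.55, n = 28) in epithelial and from -1.79 to 0.48 (median 0.05, n = 12) in spindle cell tumors, and fell by 0.65 (SE 0.21, limma adjusted p = 0.0257). Its 2 dimmer probes gave -0.27 and -0.29, and the mean over probes did not pass. Ccna2, the cyclin of S and G2 phase, had means of 0.45 ± 0.42 (SD, n = 28) and -0.09 ± 0.65 (SD, n = 12), a difference of -0.54 ± 0.17 (SE; limma adjusted p = 0.0222). Ccnb2 had a difference of -0.49 ± 0.16 (SE, limma adjusted p = 0.0214), while Cdk1 (-0.51) and Cdc25c (0.08) did not pass. On the mean over probes Cdk1 did pass as lower (-0.545, limma adjusted p = 0.0178). With slide as a random block, or without M76R, none of the 3 cyclins passed.

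Among the kinases and checkpoint genes 1 of 7 fell, Mad2l1, whose product holds back anaphase until chromosomes are attached. It ranged from 0.13 to 2.61 (median 1.02, n = 29) and from -0.81 to 1.13 (median 0.63, n = 12) and differed by -0.74 ± 0.21 (SE; limma adjusted p = 0.00896), the lowest difference among the members. The same difference was -0.47 in the tumor channel and 0.27 in the reference channel before any scaling, and its other probes gave -0.27 and -0.58; on the mean over probes or the tumor channel alone it did not pass. Among the 8 spindle motor and cytokinesis members Nusap1 fell, with values from -0.89 to 1.48 (median 0.27, n = 28) and from -1.76 to 0.73 (median -0.40, n = 12), a difference of -0.61 ± 0.18 (SE; limma adjusted p = 0.0126). Of the 3 anaphase members Cdca3 fell by 0.50 (SE 0.18, limma adjusted p = 0.0448), and it passed under 8 of 17 alternatives. None of the 5 members of the passenger complex and centromere passed, nor did Foxm1 (-0.19) or Mybl2 (-0.08).

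**Figure D3:**
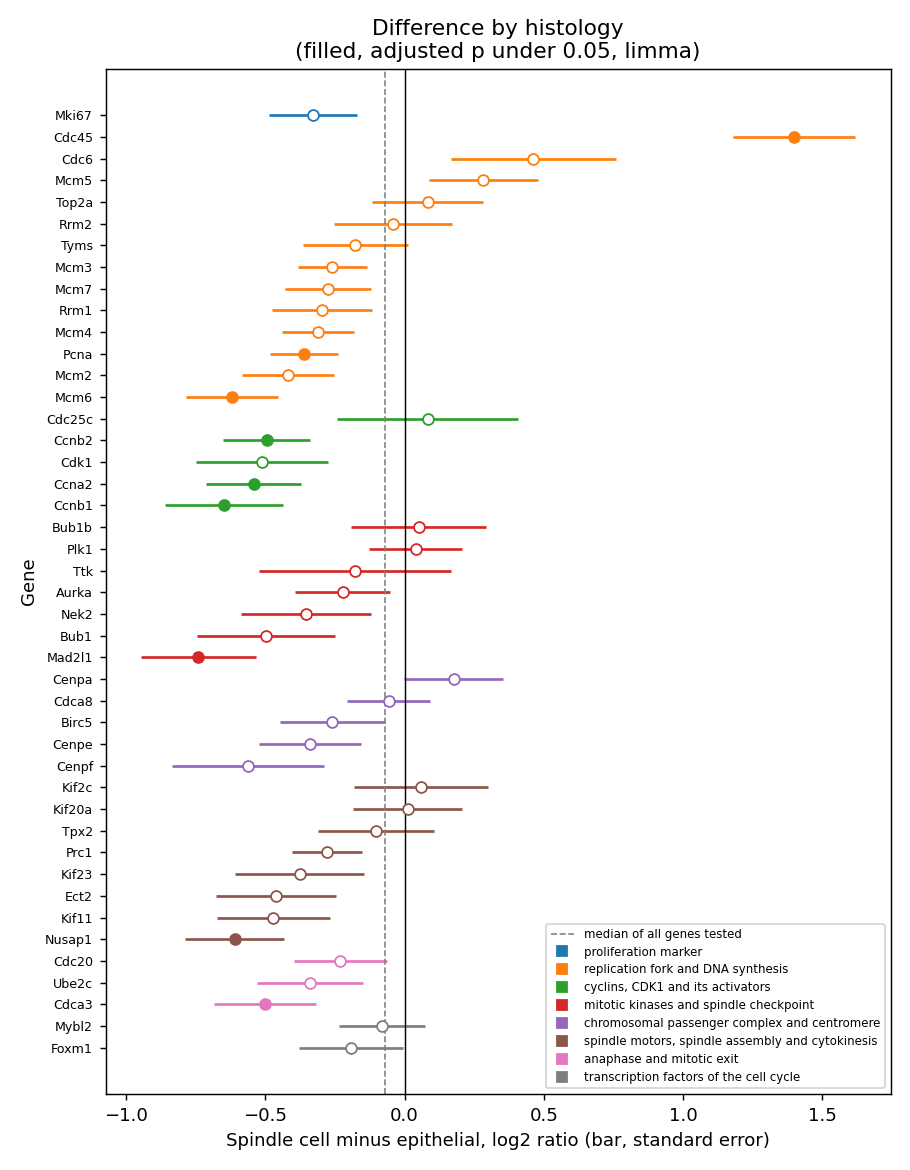
Difference between spindle cell and epithelial tumors (horizontal axis, log2 ratio, with standard error) for the 44 genes, colored by role; filled points passed the test, and the dashed line is the median of all genes at -0.07. Cdc45 stands alone on the right at 1.40, and 34 of 44 points lie below 0.

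**Figure D4:**
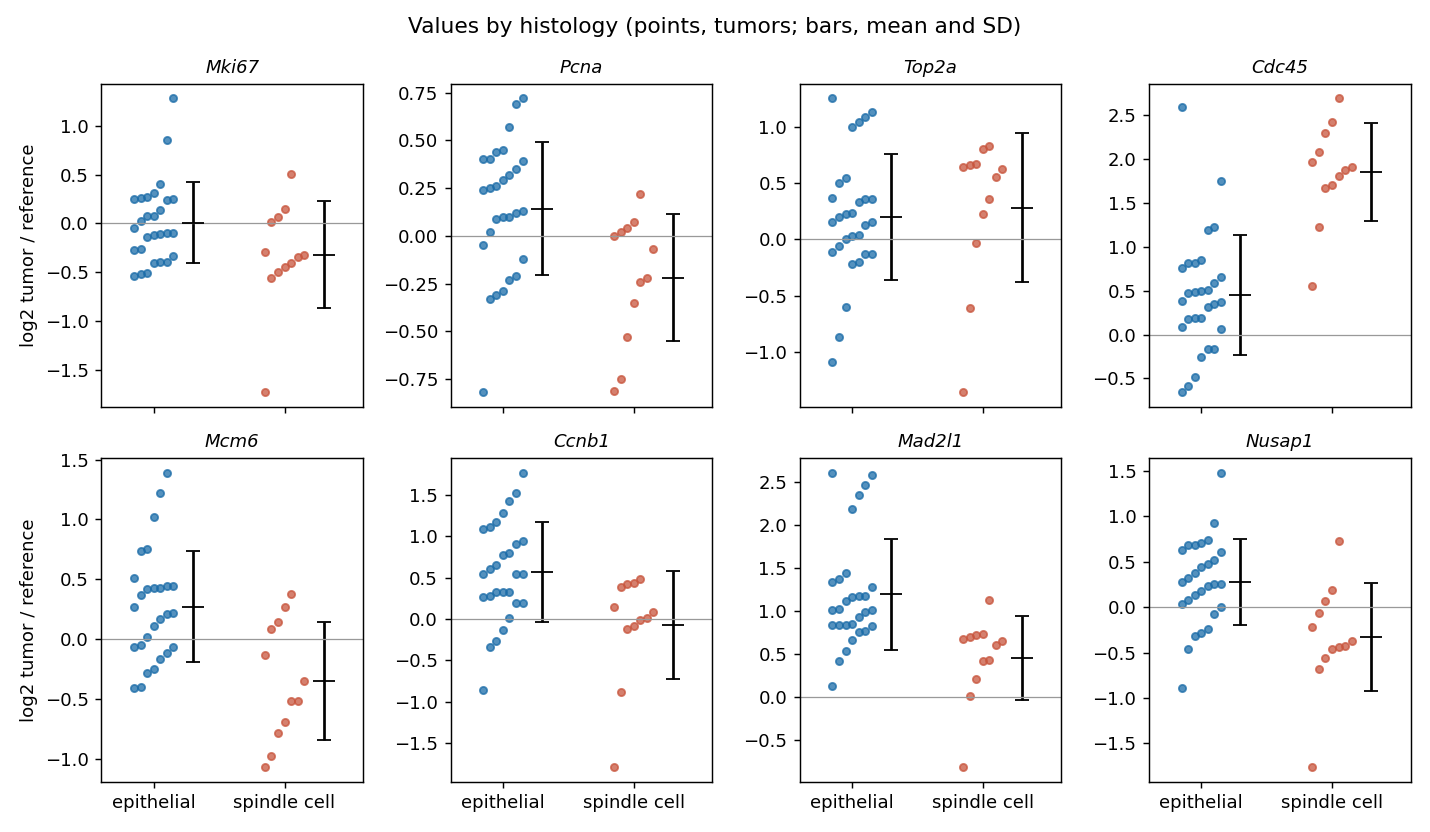
Log2 tumor over reference in each epithelial (blue) and spindle cell (red) tumor for 8 of the genes, with the mean and SD beside the points. In 6 of the 8 panels the lowest value of all is a spindle cell tumor, and the exceptions are Pcna, whose lowest values are -0.82 in an epithelial and -0.81 in a spindle cell tumor, and Cdc45.

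Several of these calls depended on single tumors. Without M76R alone 3 of the 8 genes passed as lower (Mad2l1, Mcm6 and Nusap1), and the median difference over the members was -0.17. In either direction 9.09% of members passed in that fit, beside 19.8% of all genes. Between late tumors only, 9 spindle cell against 15 epithelial, none of the 8 passed and the median was -0.23, with M76R still in the fit. There 2.27% of members and 11.2% of all genes passed in either direction. M32L (LFD, late), M86R and M76R had the lowest member medians of the spindle cell tumors (-0.01, -0.04 and -1.04, with the other 9 at 0.47 or above). Without the 3 none of the 8 passed and the median was -0.05, beside -0.07 over all genes; because these tumors were picked by the members' own values, their removal had to raise the differences, and this value is a description only. Cdc45 passed in each of these fits.

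Markers of fat cells were high in M76R and M32L. The adipocyte markers measured (Adipoq, Plin1, Fabp4 and Cidec) had a median of 3.5 in M76R and 1.67 in M32L, against -5.70 to -3.53 in the other 10 spindle cell tumors and -5.33 to -0.61 in 28 epithelial tumors, so that these were the only 2 of 40 tumors with a value in which their median exceeded the reference. Adipoq, the adipokine adiponectin, read 3.16 in M76R and 1.20 in M32L, and at most -0.39 elsewhere. In M76R the median of 9 macrophage markers was 2.11 and that of 6 endothelial markers 0.76, the highest among spindle cell tumors for both. The epithelial markers were at -0.04 in M76R, at 1.71 in M32L and at 2.82 in M86R, whose fat markers were low (-3.53). The part of other cell types in the members' differences was not tested. Without M32L and M76R, 2 of the 3 tumors of lowest member median, 3 of the 8 genes passed as lower (Mad2l1, Mcm6 and Nusap1) and Cdc45 rose by 1.53.

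Over all marker lists, endothelial markers were higher in spindle cell tumors for 3 of 6 genes (Tie1, 1.13; Pecam1, 0.87; Kdr, 0.56), macrophage markers for 1 of 9 (Cd163, 1.95), and the mesenchymal genes Col1a2 (1.23), Col1a1 (1.22) and Col3a1 (1.20) led their list, while 1 of 9 T cell markers was lower (Cd8a, -1.39). No gene passed among 4 adipocyte, 4 B and plasma cell or 5 skeletal muscle markers. Median differences were 0.85 for mesenchymal, 0.71 for endothelial, 0.37 for macrophage, -0.67 for epithelial, -0.85 for T cell, -0.57 for B and plasma cell, -0.51 for adipocyte and -0.25 for muscle markers.

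Further genes of the same processes were taken from lists, to be read beside the 12.2% of all genes called lower and 7.93% called higher. Of 49 further replication genes tested 8 fell and 1 rose, with a median of -0.17. Those of largest difference were Pola2 (0.93), a subunit of the polymerase that primes DNA synthesis, the clamp loader gene Rfc4 (-0.72) and the licensing inhibitor gene Gmnn (-0.67). Of 59 further mitosis genes 9 fell and 1 rose, with a median of -0.31, and those of largest difference were Cks2 (-0.76), which binds cyclin-dependent kinases, the kinase gene Pbk (-0.74) and Shcbp1 (-0.68). Fzr1, whose product switches on the anaphase promoting complex in G1, was the one that rose (0.52). None of 12 cell cycle brakes and quiescence genes passed (median 0.03).

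Early and late epithelial tumors were compared because the study separated tumors by latency and measured dividing cells in both. None of the 44 members passed at an adjusted p under 0.10 (limma; smallest 0.349), where 0.0957% of all genes were higher and 0.0478% lower in early tumors; 1 member had an unadjusted p under 0.05, as had 13.2% of all genes. Mki67 ranged from -0.51 to 0.27 (median -0.05, n = 13) in early and from -0.54 to 1.28 (median -0.10, n = 15) in late tumors, a difference of -0.15 ± 0.16 (SE; limma adjusted p = 0.709). Pcna had means of 0.16 ± 0.38 (SD, n = 13) and 0.13 ± 0.33 (SD, n = 15), and Top2a of 0.28 ± 0.45 (SD, n = 14) and 0.12 ± 0.65 (SD, n = 15); neither passed (limma adjusted p = 0.953 and 0.78). The 2 late tumors 13L and 110R held the highest Mki67 values, and early tumors lay within the late range.

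The smallest unadjusted p belonged to Cdc6, which ranged from -0.43 to 1.95 (median 1.08, n = 14) in early and from -2.77 to 1.48 (median 0.45, n = 15) in late tumors, a difference of 0.66 ± 0.31 (SE; limma adjusted p = 0.349). Next were Cdca3, at -0.39 ± 0.20 (SE; limma adjusted p = 0.396), and Ttk, at 0.71 ± 0.37 (SE; limma adjusted p = 0.404). Over the members 28 of 44 differences were above 0, as were 52.2% of those of all genes. The members' median was 0.08, beside 0.01 over all genes, and among replication members 11 of 13 were above 0. Within the 3 slides that held both onsets, the median over the members was -0.26, 0.05 and 0.32, so its sign differed between slides; for Mki67 the differences were -0.11, -0.19 and 0.15. The last of these slides held 40R4A, 57R and 65R. Neither the 49 replication genes nor the 59 mitosis genes of the further lists had a member that passed.

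The 4 regimens were compared in epithelial tumors to ask whether diet left a mark on proliferation genes. By staining PCNA protein, the study reported more proliferation in late epithelial tumors under each regimen that included HFD. Among early ones it reported this for HFD-LFD and LFD-HFD but not HFD, and among spindle cell tumors for HFD and HFD-LFD. The values here are bulk RNA of few tumors per group, so the lack of a call is no test of that protein result. None of the 44 members passed the test over the regimens (limma F-test; smallest adjusted p = 0.377), as 0.474% of all genes did, nor any contrast with LFD. In those contrasts 0% of all genes passed for HFD, 1.25% for HFD-LFD and 0% for LFD-HFD, and the members' medians were -0.10, 0.01 and 0.02. Unadjusted p fell under 0.05 for 2, 4 and 2 members, and for 9.42%, 13.5% and 6.56% of all genes.

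Mki67 had means of 0.08 ± 0.57 (SD, n = 8) in LFD, -0.25 ± 0.30 (SD, n = 7) in HFD, 0.20 ± 0.34 (SD, n = 7) in HFD-LFD and -0.03 ± 0.25 (SD, n = 6) in LFD-HFD tumors. Pcna had -0.07 ± 0.43 (SD, n = 8), 0.13 ± 0.20 (SD, n = 7), 0.24 ± 0.41 (SD, n = 7) and 0.33 ± 0.14 (SD, n = 6). So the order of the regimens differed between the 2 genes: HFD was lowest for Mki67 and LFD for Pcna, with no neighbours in either order apart by more than their spread. Top2a had 0.05 ± 0.32 (SD, n = 8), 0.25 ± 0.69 (SD, n = 8), 0.19 ± 0.75 (SD, n = 7) and 0.33 ± 0.44 (SD, n = 6). The lowest unadjusted p belonged to Mad2l1, with means of 1.34, 0.71, 1.25 and 1.6 in the same order, to the cytokinesis gene Ect2 (1.23, 1.12, 1.62 and 1.87) and to Cdc6 (1.0, 0.48, -0.04 and 1.02); their adjusted p were 0.377, 0.408 and 0.408 (limma F-test), beside 0.592 for Mki67, 0.559 for Pcna and 0.918 for Top2a.

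**Figure D5:**
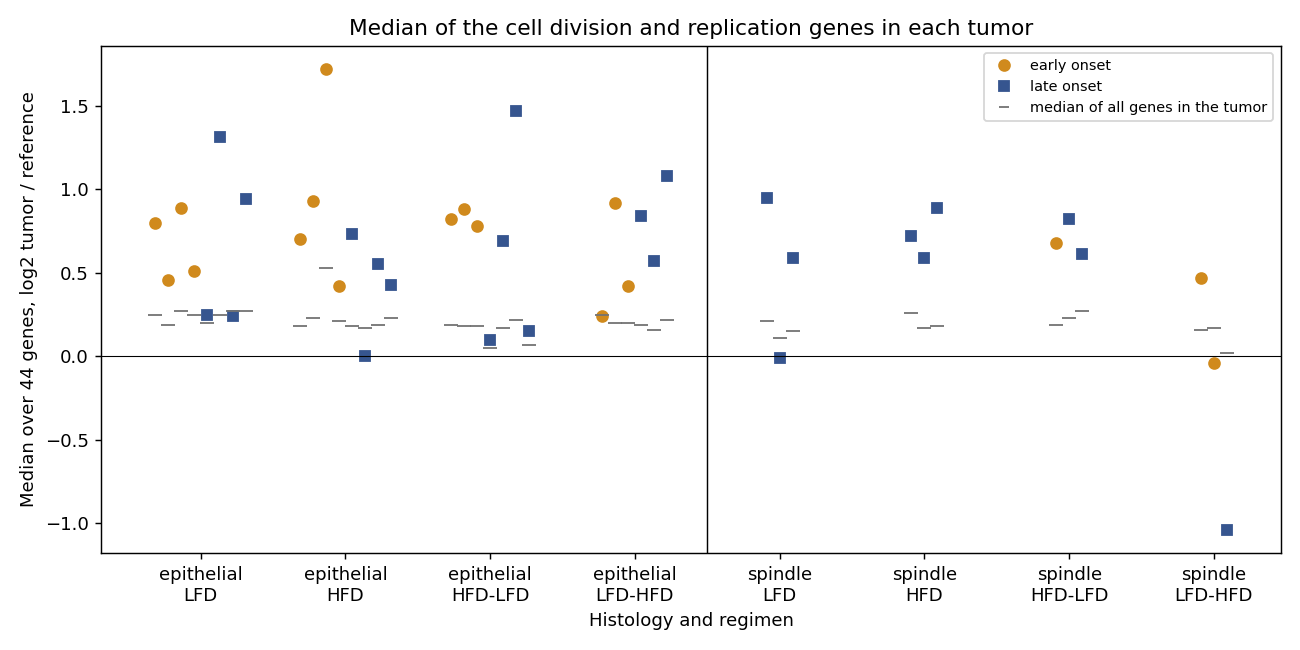
Median over the 44 genes in each tumor (vertical axis, log2 tumor over reference), by histology and regimen, for early (circles) and late (squares) tumors; gray dashes give the median of all genes on the same array. Epithelial groups overlap over most of their range, and the LFD-HFD spindle cell tumors lie at 0.47, -0.04 and -1.04; the highest point, 60L, rests on 20 of 44 genes.

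Split by onset, no member passed in any of the contrasts with LFD. Among early epithelial tumors 0.0861% of all genes passed for HFD, 0.0813% for HFD-LFD and 0% for LFD-HFD, and the members' medians were 0.00, 0.10 and -0.11, with ranges over the alternatives of -0.14 to 0.23, -0.02 to 0.17 and -0.26 to -0.02. The 3 early HFD-LFD tumors had Pcna values of 0.69, 0.35 and 0.39, and the 4 early LFD tumors 0.09, -0.82, 0.29 and -0.33. These groups did not overlap. This was not particular to Pcna, since other members, among them Prc1, Aurka and Ube2c, did not overlap between the same tumors either. The share of all genes without overlap was not counted for this contrast. The Pcna difference was 0.67 ± 0.25 (SE, limma adjusted p = 0.384). Mki67, however, read 0.02, 0.14 and 0.27 against 0.08, -0.10, 0.24 and -0.51, with a difference of 0.21 ± 0.34 (SE). Of the 3 HFD-LFD tumors, 2 share a number in their names and may be glands of one mouse. Top2a had means of 0.20 ± 0.22 (SD, n = 4) in early LFD, 0.58 ± 0.73 (SD, n = 4) in HFD, 0.17 ± 0.18 (SD, n = 3) in HFD-LFD and 0.09 ± 0.36 (SD, n = 3) in LFD-HFD tumors, and no contrast of it passed. Cdc25c in early HFD tumors differed by 1.43 ± 0.63 (SE; limma adjusted p = 0.428).

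Early HFD tumors depended on which arrays were counted. Without 40R4A, 57R and 65R the early HFD group consisted of 42L4B and 60L, which shared a slide and a scan session of their own, and 6 members then passed as higher than in LFD tumors: Cdc25c (2.91), Cdc45 (1.6), Bub1b (1.59), Bub1 (1.58), Kif2c (1.39) and Tyms (1.27). In that fit 21.2% of all genes passed, against 14.3% of the 42 members tested. Without 42L4B and 60L the Cdc25c difference was -0.04. The part of the slide and of the outlier spots in these values was not tested.

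Among late epithelial tumors 0% of all genes passed for HFD, 0.0813% for HFD-LFD and 0% for LFD-HFD. The members' medians were -0.28, -0.03 and 0.19. For HFD 35 of 44 members lay below 0, while 46.1% of all genes lay above 0. For LFD-HFD 33 of 44 members lay above 0, beside 47.4% of all genes. The medians for HFD and LFD-HFD both moved with single tumors. The HFD median was -0.09 without 13L, -0.12 without 57R, -0.15 without 27L4A and -0.07 in the authors' table, but -0.40 without 19R. The LFD-HFD median was 0.00 without 11L, with 22 of 44 members above 0, but 0.36 without 13L. Over the alternatives they ran from -0.397 to -0.069 and from 0.004 to 0.364, so neither changed sign. For HFD-LFD the median ranged from -0.35 to 0.17 over the alternatives, turning sign. Mki67 in late HFD tumors read -0.54, -0.52, 0.25 and -0.39, against -0.26, 1.28, -0.41 and 0.31 in late LFD tumors, a difference of -0.53 ± 0.31 (SE; limma adjusted p = 0.641). Pcna read -0.21, 0.57, -0.29 and 0.13 in late LFD, 0.02, -0.23, 0.40 and 0.12 in HFD, -0.31, -0.12, 0.72 and -0.05 in HFD-LFD, and 0.45, 0.32 and 0.40 in LFD-HFD tumors. All groups overlapped with LFD, and the differences from it were 0.03 ± 0.24, 0.01 ± 0.24 and 0.34 ± 0.25 (SE; limma adjusted p = 0.982, 0.993 and 0.999). Top2a had means of -0.10 ± 0.36 (SD, n = 4), -0.09 ± 0.54 (SD, n = 4), 0.21 ± 1.05 (SD, n = 4) and 0.58 ± 0.40 (SD, n = 3) in the same order, and none of its contrasts passed. Ect2 was highest in late LFD-HFD tumors, at 1.05 ± 0.41 (SE) above LFD (limma adjusted p = 0.904), and Cdk1 was lower in late HFD-LFD tumors by 1.08 (difference -1.08, SE 0.44, limma adjusted p = 0.351). No interaction of regimen with onset passed in any member (limma F-test; smallest adjusted p = 0.686, for Cdc25c), as 0.00478% of all genes did; next by p were Prc1 (0.727) and Bub1 (0.748), and Mki67, Pcna and Top2a stood at 0.927, 0.818 and 0.807.

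Among the 4 regimens in spindle cell tumors no member passed (limma F-test; smallest adjusted p = 0.977, which was also the value for Mki67, Pcna and Top2a), and 0% of all genes did. Unadjusted, 8 of 44 members had p under 0.05, as had 3.74% of all genes. The smallest p belonged to Mcm7, a helicase subunit, whose values were 0.56, -0.06 and 0.21 in LFD, 0.90, 0.73 and 0.53 in HFD, 0.64, 0.74 and 0.67 in HFD-LFD and -0.09, -0.15 and -0.97 in LFD-HFD tumors. The HFD and HFD-LFD tumors were thus all above the LFD-HFD tumors, and M76R was the lowest. Tyms, the thymidylate synthase gene, read 1.31, 0.45 and 1.26, then 1.47, 1.77 and 1.99, then 2.01, 1.83 and 1.49, and last 0.81, 0.78 and -0.35. Mcm2 was likewise lowest by mean in LFD-HFD tumors, at -0.26, -0.15 and -1.02, and its lowest HFD-LFD value was 0.58.

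Relative to LFD, 43 of 44 members had a lower mean in LFD-HFD spindle cell tumors, with a median of -0.75 beside -0.03 over all genes, but none passed (limma adjusted p of 1 for Mki67, Pcna and Top2a), where 0.00957% of all genes did. A total of 11 members had an unadjusted p under 0.05, as had 4.52% of all genes. Of all genes 47.4% lay above 0 in this contrast. Members correlated closely over the spindle cell tumors (median r 0.79), so they are not independent observations. Mki67 read -0.32, -0.45 and -1.73 against 0.51, -0.34 and 0.01, a difference of -0.89 ± 0.36 (SE). Ccna2, of smallest p, read -0.56, -0.49 and -1.72 against 0.70, -0.24 and -0.21, a difference of -1.0 ± 0.35 (SE); these groups did not overlap, as was the case for 6 of 44 members and 5.85% of all genes. Without M76R the median was -0.35 and no member had an unadjusted p under 0.05; without M84R it was -1.12. In the same contrast 4 of 4 B and plasma cell markers (median 2.91), 9 of 9 T cell markers (0.98), 4 of 4 adipocyte markers (0.83) and 10 of 12 cell cycle brakes (0.36) were above 0, and the further replication and mitosis genes had medians of -0.61 and -0.70, with no gene of these lists past the test; their part in the members' values was not tested. For HFD and HFD-LFD against LFD spindle cell tumors, 0.0191% and 0.00478% of all genes passed, no member did, and the members' medians were 0.14 and 0.15. Without M32L, 1 of the 3 LFD tumors, both turned to -0.07 and -0.10, with 17 and 15 of 44 members above 0. Pcna read -0.53, -0.22 and -0.35 in HFD against 0.02, 0.00 and -0.24 in LFD tumors, a difference of -0.29 ± 0.27 (SE), and Mki67 differed by -0.33 ± 0.36 (SE) and Top2a by 0.22 ± 0.48 (SE). For HFD-LFD the same genes gave 0.15 ± 0.27, -0.31 ± 0.36 and 0.34 ± 0.48 (SE).

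Last, tumors of mice fed HFD in puberty (HFD and HFD-LFD, 21 tumors) were compared with the rest (20 tumors). No member passed (limma; smallest adjusted p = 0.756, for Cdc20 at 0.28 ± 0.15, SE), where 0.00957% of all genes were higher and 0% lower; 37 of 44 differences were above 0, with a median of 0.12 beside -0.02. Of all genes 44.9% were above 0. Without M76R the members' median was 0.03 with 25 of 44 above 0, so that the count of 37 rested on 1 tumor. Mki67 had means of -0.09 ± 0.37 (SD, n = 20) and -0.09 ± 0.57 (SD, n = 20), Pcna of 0.08 ± 0.33 (SD, n = 20) and -0.02 ± 0.42 (SD, n = 20), and Top2a of 0.32 ± 0.61 (SD, n = 21) and 0.12 ± 0.54 (SD, n = 20). Their limma adjusted p were 1, 0.918 and 0.868. Cdc25c (0.51) and the centromere histone gene Cenpa (0.28) followed Cdc20.

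The effect of pubertal HFD ran apart in the histologies by mean, without passing the test. Among 12 spindle cell tumors 44 of 44 members had a higher mean with pubertal HFD (median 0.53, all genes 0.04), and among 29 epithelial tumors 16 of 44 (median -0.05, all genes -0.04). The interaction had a median of 0.63 over the members, beside 0.07 over all genes; no member passed (limma; smallest adjusted p = 0.153), where 0.426% of all genes did, and 14 of 44 members had an unadjusted p under 0.05, as had 12.2% of all genes. Tyms had the smallest p, with an interaction of 1.15 ± 0.33 (SE). Its spindle cell means were 1.76 ± 0.24 (SD, n = 6) with pubertal HFD and 0.71 ± 0.61 (SD, n = 6) without. The Tyms values of these spindle cell groups did not overlap, which held for 1 of 44 members and 0.53% of all genes. In epithelial tumors its means were 1.36 ± 0.58 (SD, n = 14) with pubertal HFD and 1.46 ± 0.37 (SD, n = 14) without. Mcm7 (0.80, limma adjusted p = 0.244) and Cdc6 (1.46, limma adjusted p = 0.27) came next, while Mki67 gave 0.18 ± 0.32 (SE), Pcna 0.06 ± 0.25 (SE) and Top2a 0.51 ± 0.39 (SE). After normexp background correction and loess, Tyms (0.83) and Mcm7 (0.74) passed, which was 4.55% of the members where 11.3% of all genes passed. In the same interaction the medians were -3.34 for adipocyte markers (0 of 4 above 0), -1.16 for endothelial markers (0 of 6) and -1.19 for mesenchymal markers (2 of 12), of which Fap was called lower (-1.71, limma adjusted p = 0.0441); the part of these cells was not tested. M32L, M86R and M76R all belonged to the group without pubertal HFD. Without the 3, picked by their low member medians, the spindle cell median was -0.02 with 21 of 44 members above 0, and without M76R alone it was 0.28 with 42 of 44.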

How the data were processed

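RNA of 41 tumors was labelled and hybridised with a common reference on 2-color Agilent mouse arrays of 43020 spots. The deposited scanner files hold intensity values (processed red and green signals, background-subtracted and dye-normalised by the authors' Feature Extraction software; version 8.5.1.1 per the labels, 11.0.1.1 and 10.5.1.1 in the file headers). The deposited table of processed values holds log2 ratios of the same arrays; per the methods the authors applied Lowess and filled missing values from nearest neighbors, and it served as an alternative. Of its columns 38 of 41 matched their own scanner file best.

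From these, log2 of red over green was computed with outlier spots missing. Probes with both signals over 10 on at least 80% of arrays were kept (27300 of 39429), and the probe of highest mean signal represented each gene (20906 genes); 15 members had more than 1 probe. Contrasts were fitted on all genes with limma (version 3.58.1, R 4.3.3), with Benjamini-Hochberg adjustment over all genes and thresholds of 0.05 for histology and 0.10 otherwise; 5 relations between members were tested with 100000 permutations. No label names the mouse. Tumor names 11L and 11R, 117L and 117R, and 56R and M56LA share a number within a regimen and may be from one mouse each, so p-values measure the spread between tumors and may be too small. The members and lists were chosen with earlier results of these data known. Mki67, Pcna and Top2a were described throughout, with up to 5 members called in each direction or, where none was called, up to 3 of smallest unadjusted p. Lists were further replication and mitosis genes, cell cycle brakes, and markers of epithelial, mesenchymal, T, macrophage, B and plasma, endothelial, adipocyte and muscle cells. Alternatives changed background correction, centring, filters, probes, slide blocks, labels and tumors included; those without M76R, without M32L and M76R, and on the tumor channel alone, and that without M32L, M86R and M76R for pubertal HFD by histology, were chosen after seeing the data. Code was tested on simulated data.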

Additional observations from a re-analysis of the deposited data

Results flagged for a closer look

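Among 124 combinations of a group of 4 to 10 tumors with a gene or with the median over the members, 6 had a tumor farther from the rest than the 95% critical value of Dixon's test, and chance gives about 5%. Mki67 read 1.28 in the late tumor 13L, against -0.51 to 0.31 in the other epithelial LFD tumors (n = 8). The late HFD-LFD tumor 110R read 0.81 for Cdc45, against 0.06 to 0.18 in the other late HFD-LFD epithelial tumors (n = 4). For Mcm6 it read 1.22, against -0.17 to 0.02 in those tumors and -0.17 to 0.42 in all other epithelial HFD-LFD tumors (n = 7). Ccnb1 read -0.86 in 57R, against 0.33 to 0.55 in the other late epithelial HFD tumors (n = 4) and 0.27 to 0.80 in all other epithelial HFD tumors with a value (n = 7).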

How the results depend on the processing

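Between histologies, Cdc45 remained higher under all 17 alternatives fitted, but its size moved. The difference, 1.40 as reported, ran from 0.84 to 1.55. It was 0.84 under normexp and loess and 1.12 in the authors' table. The count of members called lower, 8, was 3 with slide as a random block (Mad2l1, Mcm6 and Nusap1, and no cyclin), 5 without 42L4B, 60L and M86R, 0 with late tumors only, 0 without M32L, M86R and M76R, 3 without M76R, 3 without M32L and M76R and 5 on the tumor channel alone, of which Mcm6 and Ccnb2 were among the 8 and Kif11, Kif2c and Mcm7 were not. It was 7 under normexp and loess, the authors' table, the mean over probes, outlier spots kept and regimen as a covariate. On the mean over probes the 7 included Cdk1, and Ccnb1 and Mad2l1 were lost. The count called higher, 1, was 2 with no filter on signal and 2 without M32L, M86R and M76R. In either direction, 20.5% of members were called as reported (20.2% of all genes). This share was 9.09% with slide as a random block (12.2%), 2.27% with late tumors only (11.2%) and 9.09% without M76R (19.8%). The Pcna difference became 0.012 (limma adjusted p = 0.966) on the tumor channel alone, and kept its sign elsewhere. The count for HFD against LFD in early epithelial tumors, 0, was 6 without 40R4A, 57R and 65R (14.3% of members, 21.2% of all genes), and that for regimen by onset 1 (Cdc25c; 2.38% and 8.32%). For pubertal HFD by histology it was 2 (Tyms and Mcm7) under normexp and loess (4.55% and 11.3%), and 1 (Tyms) without 42L4B, 60L and M86R (2.27% and 2.95%). In every other comparison no member was called under any alternative run, including those that left out in turn each tumor of the contrasts within an onset or histology. The relations between members were retested only under normexp and loess, median centring and the authors' table, and stayed on their side of the threshold there. Their values without the farthest tumors, within slides and by onset were not tested. Over all genes the calls between histologies ranged from 2347 to 7892 (4217 reported), and for pubertal HFD by histology from 0 to 2360 (89 reported). With the labels of the authors' table for 40R4A, 57R and 65R no count of members changed. No paired analysis was possible because the labels give no replicate numbers, and only 1 pair of names (11L and 11R) shares a number between onsets and 1 (56R and M56LA) between histologies; blocks by slide were fitted. The small spindle cell groups (3 tumors a regimen) and the dim Aurkb probe limit what could be seen.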
